A study of Gallus gallus with 28 samples.

Results

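Expression of CPT2, ACAT1, PPARA and CAT, 4 genes of fatty acid oxidation in mitochondria and peroxisomes, was compared between livers of fat and lean line chickens. The members were picked by the gene symbol in the platform's spot annotation, with no filter on measured values, but with earlier results of these data known. They make up 4 of the 142 named genes and 7 of the 576 printed positions of a 2-colour cDNA array, on which each position was spotted 3 times. CPT2 and PPARA stood at 1 position each, CAT at 2 and ACAT1 at 3, and all positions of a gene carried the same cDNA. They were therefore repeats of 1 probe and not independent probes.

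Liver RNA of 4 chickens was combined into a pool, and there were 10 such pools, numbered 1 to 5 in the lean line and 6 to 10 in the fat line. The labels name no treatment, age or sex for either line. Poly(A)+ RNA of a pool was labelled with Cy5 and hybridised against a Cy3-labelled mixture of all 10 pools, on 3 arrays per pool and on 2 for pools 3 and 8, which gave 14 arrays per line. Because the arrays of any pool repeat its RNA, n is 5 pools per line unless stated, and a line difference cannot be resolved to single birds. Filled spots numbered 450 to 741 per array, of 1728. Of the hepatocyte markers checked, 5 of the 6 on the array (APOA1, APOB, GC, AHSG and FABP1) had values and ALB had none, while 0 of 25 markers of blood, immune, stromal, fat and muscle cells were on the array. In pooled liver, fewer cells of a type and less RNA per cell cannot be told apart.

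Fatty acids are burned in the liver after they have been linked to carnitine, carried through the inner mitochondrial membrane and handed back to coenzyme A. They are then shortened step by step to acetyl-CoA, which feeds the citrate cycle or ketone body formation. Peroxisomes shorten very long and branched chains and release hydrogen peroxide in doing so. In birds the liver also makes most of the body's new fat, so oxidation and synthesis genes are measured side by side here.

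All values below are log2 ratios of a pool to the common reference. They describe 1 probe at a time, so levels of different genes cannot be compared. The direction of the deposited ratio is not stated and was taken as Cy5 over Cy3, that is pool over reference. The correlation over all spots lay below -0.3 in 2 of 378 pairs of arrays, at -0.31 for array 1 of fat pool 6 with array 1 of lean pool 1 (538 shared spots) and -0.31 with array 2 of lean pool 3 (426 shared spots). Turning the ratio round on all arrays would leave these correlations unchanged, so they cannot decide the direction. The direction is assumed and not settled. If it ran the other way, each line difference given as fat minus lean would change its sign and keep its size, its interval width and its p-value.

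Across the 4 genes the line difference was positive for CPT2, PPARA and CAT and negative for ACAT1, and 0 of the 4 passed the test. The moderated test of limma was fitted to all 110 named genes that had a value in 3 or more pools of both lines, and the threshold was a Benjamini-Hochberg adjusted p of 0.05. Over all 110 genes it called 0 (0%), and over all 297 positions it also called 0 (0%). At an unadjusted p under 0.05 there were 10 of 110 genes (9.09%), with 0 of the 4 among them. The lines did not overlap in 3 of 110 genes (2.73%) and in 0 of the 4. The median difference was 0.42 over the 4 genes and 0.03 over all 110, of which 60 had a positive and 50 a negative difference. The 0.42 is the midpoint of CAT (0.16) and PPARA (0.69), and the 2 largest differences, of CPT2 and PPARA, come from sparsely filled spots. By printed position, 4 of the 7 had a positive and 3 a negative difference.

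**Figure D1:**
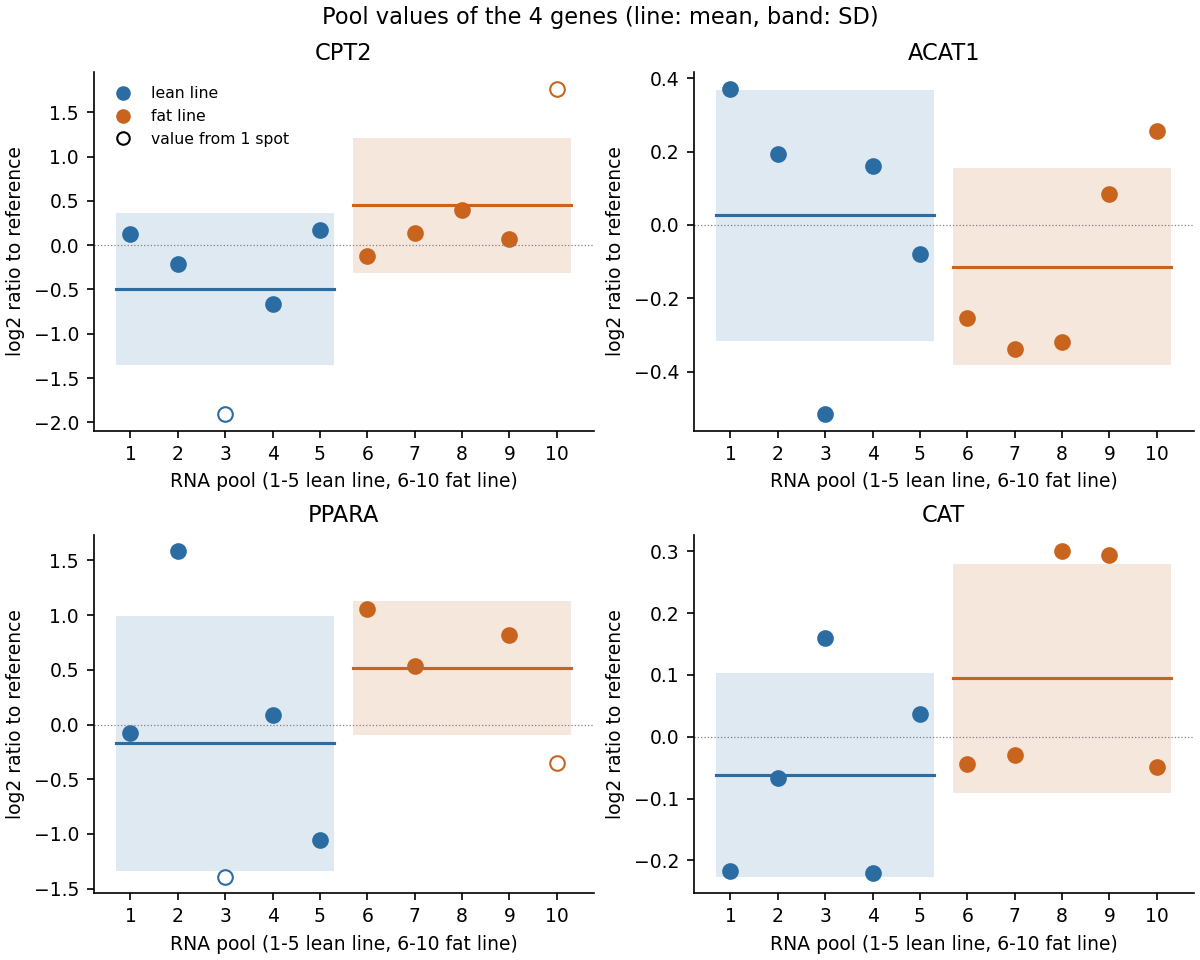
Log2 ratio to the common reference (y axis, with its own scale in each panel) of CPT2, ACAT1, PPARA and CAT in each RNA pool (x axis), lean pools in blue and fat pools in orange. Lines and bands give the mean and SD of each line, and open points mark pool values that rest on 1 spot. The lines overlap in all 4 genes, and in CPT2 the lowest lean pool (-1.91) and the highest fat pool (1.77) are both open points.

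CPT2 is carnitine palmitoyltransferase on the inner face of the inner mitochondrial membrane, which returns the fatty acid from carnitine to coenzyme A. The CPT2 log2 ratios were 0.13, -0.21, -1.91, -0.67 and 0.18 in lean pools 1 to 5. They were -0.12, 0.14, 0.40, 0.07 and 1.77 in fat pools 6 to 10. Fat pools 8 and 10 lay above the highest lean pool, and the other 3 fat pools lay inside the lean range. The means were -0.50 ± 0.86 in the lean and 0.45 ± 0.76 in the fat line (SD, n = 5 each). They differed by 0.95 (standard error 0.46, 95% interval -0.07 to 1.97), or 1.93-fold (0.951 to 3.91). This was the sixth largest difference of the 110 genes in absolute size and did not pass (limma adjusted p = 0.566). The exact permutation test over the pools gave a two-sided p of 0.0952.

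The CPT2 probe was filled on only 30 of 84 spots (35.7%), where the median of the 297 tested positions was 79.8%. There were 13 CPT2 spots in the lean and 17 in the fat line, of 42 possible in each. The lowest pool, lean pool 3, rested on 1 spot at -1.91, and the highest pool, fat pool 10, on 1 spot at 1.77. Lean pool 4 rested on 1 spot of each of 2 arrays, which stood at -1.52 and 0.19. The pools with the most CPT2 spots, 5 each, were lean pool 5, fat pool 6 and fat pool 7. In fat pool 7 the 3 spots of array 1 gave 0.19, 1.42 and 1.09, against 0.08 on array 2 and -0.55 on array 3. The spots of lean pool 5 ran from -0.27 to 0.42 and those of fat pool 6 from -0.25 to 0.10.

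Keeping only pool values from at least 2 spots, a setting chosen after seeing the data, left 4 CPT2 pools per line and a difference of 0.26 (limma adjusted p = 0.662). The difference was 0.59 without pool 3 and 0.62 without pool 10. The medians of the lines, -0.21 in lean and 0.14 in fat pools, differed by 0.36. With the second array of each pool alone, CPT2 had values only in lean pools 1, 4 and 5 and fat pools 6 to 9. The difference was then 0.38, with lean pool 4 at the single spot of -1.52.

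**Figure D2:**
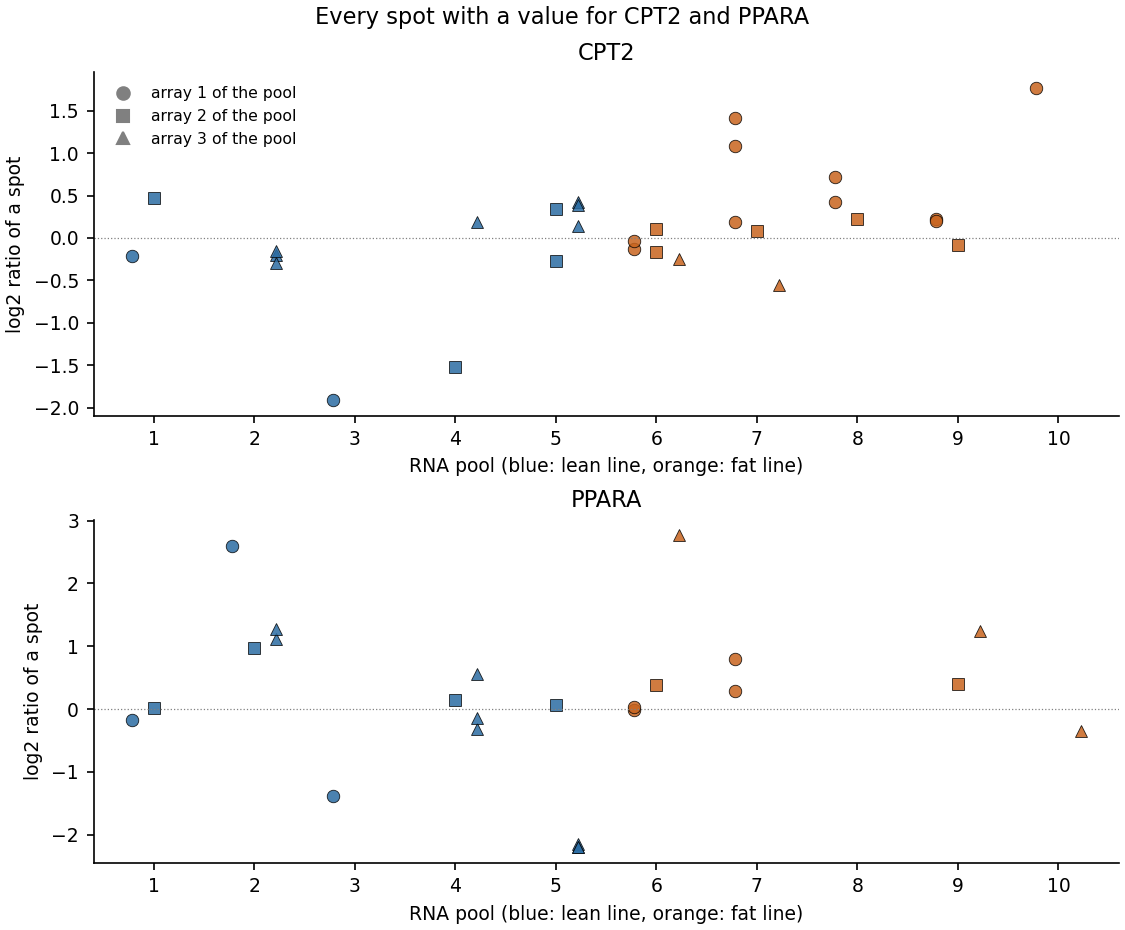
Log2 ratio of every spot with a value (y axis) for CPT2 and PPARA by RNA pool (x axis), with arrays of a pool set side by side and marked by symbol, lean pools in blue and fat pools in orange. Pools 3 and 10 have 1 spot in either gene, and PPARA has no spot in pool 8.

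PPARA is the nuclear receptor that binds fatty acids and, as known mainly from mammals, switches on oxidation genes together with a retinoid X receptor. The PPARA log2 ratios were -0.08, 1.59, -1.39, 0.09 and -1.06 in lean pools 1 to 5. In the fat line they were 1.06 in pool 6, 0.54 in pool 7, 0.82 in pool 9 and -0.35 in pool 10, and pool 8 had no value. The 4 fat pools all lay inside the lean range, whose ends were pools 2 and 3. The medians of the lines, -0.08 in lean and 0.68 in fat pools, differed by 0.76. The means were -0.17 ± 1.17 in the lean (SD, n = 5) and 0.52 ± 0.61 in the fat line (SD, n = 4). They differed by 0.69 (standard error 0.57, 95% interval -0.60 to 1.97). It did not pass (limma adjusted p = 0.703, two-sided exact permutation p = 0.325).

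PPARA had values on 24 of 84 spots (28.6%), 15 in the lean and 9 in the fat line, the lowest fill among the 7 positions. Arrays of 1 pool could lie far apart. In lean pool 5 the 3 spots of array 3 stood at -2.15, -2.20 and -2.19, and the single spot of array 2 at 0.06. In fat pool 6 the single spot of array 3 was at 2.77, while arrays 1 and 2 gave spots between -0.02 and 0.39. The median SD was 0.11 between spots of an array and 0.74 between arrays of a pool, against 0.19 and 0.24 over the tested positions. The 0.11 rests only on array 3 of lean pools 2, 4 and 5 and array 1 of fat pools 6 and 7. The 0.74 rests on lean pools 1, 2, 4 and 5 and fat pools 6 and 9, mostly from arrays with 1 PPARA spot. The difference was 0.38 without pool 3 and 1.13 without pool 2. Without pool values from 1 spot, which removes pools 3 and 10, it was 0.67.

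ACAT1 is the mitochondrial acetoacetyl-CoA thiolase, which works in ketone body and isoleucine metabolism and on the shortest product of fatty acid breakdown. Averaged over its 3 positions, ACAT1 stood at 0.37, 0.19, -0.52, 0.16 and -0.08 in lean pools 1 to 5. In fat pools 6 to 10 it stood at -0.25, -0.34, -0.32, 0.09 and 0.26. All 5 fat pools lay within the lean range, and 3 of them were below the lean mean. The medians of the lines, 0.16 in lean and -0.25 in fat pools, differed by -0.41. The means were 0.03 ± 0.34 in the lean and -0.11 ± 0.27 in the fat line (SD, n = 5 each), and fat minus lean came to -0.14 (standard error 0.20, 95% interval -0.57 to 0.29). It did not pass (limma adjusted p = 0.800, two-sided exact permutation p = 0.484).

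The ACAT1 positions were well filled, with 83, 75 and 81 of 84 spots in blocks 11, 15 and 7 of the slide. The differences were -0.06 in block 11 (standard error 0.18), -0.17 in block 15 (standard error 0.17) and -0.19 in block 7 (standard error 0.31), and none passed over the 297 positions (limma adjusted p = 0.925, 0.697 and 0.851). Block 11 and block 15 had pool values of the same sign in 10 of 10 pools and a median absolute difference of 0.11. Their Pearson r was 0.63 over the 10 pools but only 0.35 over the 28 arrays. Block 7 went with each of them in sign in 7 of 10 pools. Its Pearson r with blocks 11 and 15 was 0.72 and 0.46 over the pools and -0.11 and -0.09 over the arrays. Without array 1 of lean pool 2 the array values were 0.21 and 0.20. The ACAT1 spots of block 7 on array 1 of lean pool 2 stood at 3.96, 3.54 and 4.18, while the 2 filled spots in block 11 on that array gave -1.02 and -0.18, and those in block 15 gave -1.76, 0.04 and 0.01. The other 19 filled spots of block 7 on that array lay between -1.25 and 1.88, with a median of 0.02. On array 2 of the same pool the block 7 spots stood at 0.20, -5.15 and -0.08.

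The sign of the ACAT1 gene difference turned in 1 of the alternatives, and its size moved in several. Without the first array of pool 2, a setting chosen after seeing the data, block 7 turned to 0.13 and the gene was at -0.07. With the second array of each pool alone the gene difference was 0.0073 and with the first array alone it was -0.31. With single pools left out it ran from -0.28 (pool 3) to -0.05 (pool 1), and leaving out pool 7, 8 or 10 gave -0.08, -0.09 and -0.23. Quantile normalization gave -0.22. Block 15 was at -0.07 without pool 7, and at -0.021 with the first array of each pool alone. Block 7 ran from -0.44 without pool 3 to -0.027 without pool 2, and was at -0.81 with first arrays alone. Block 11 turned to values just above 0, from 0.0013 to 0.031, without pool 1, 4 or 8.

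**Figure D3:**
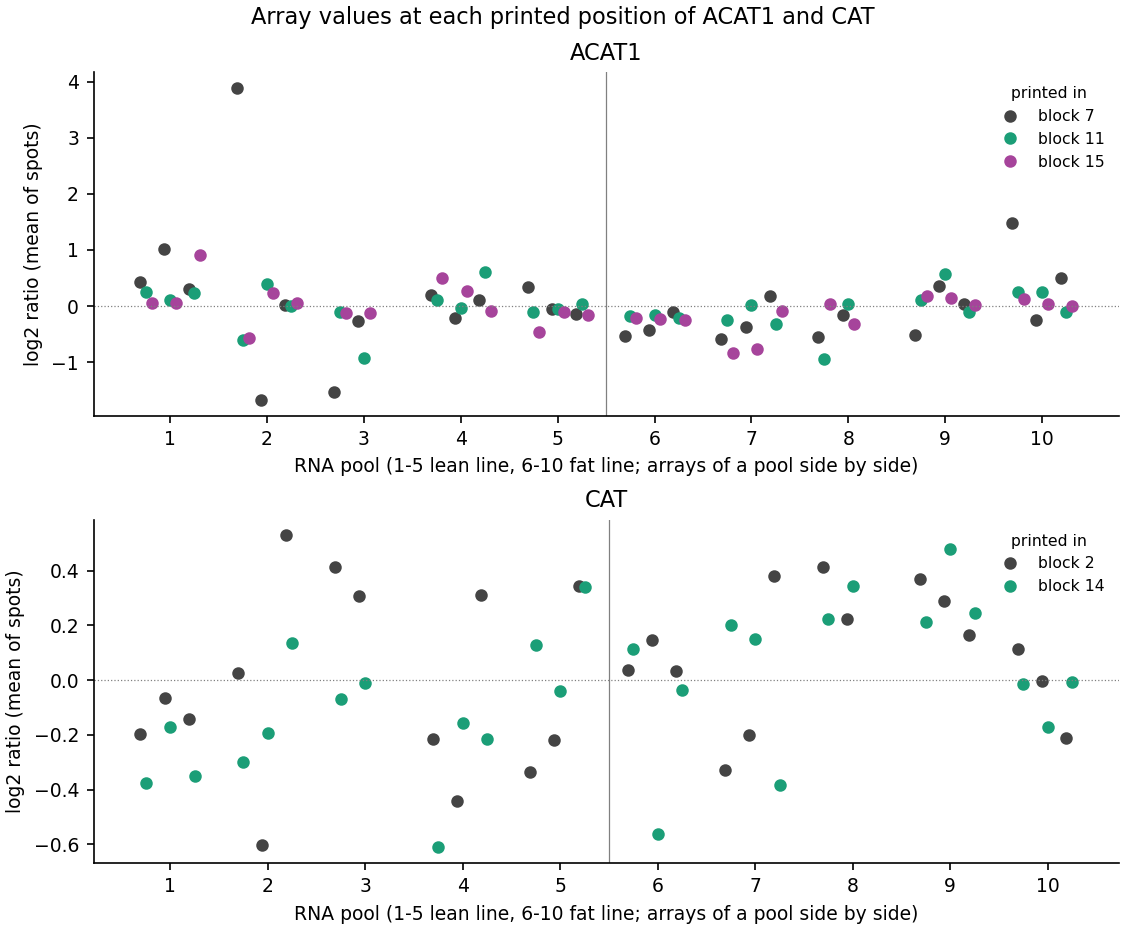
Log2 ratio of each array (y axis, mean of up to 3 spots) at the 3 printed positions of ACAT1 and the 2 of CAT, by RNA pool (x axis), with lean pools left and fat pools right of the vertical line. In ACAT1 the block 7 value of array 1 of pool 2 lies near 4 and apart from both other positions on the same array, and in CAT the array values run from -0.61 to 0.53.

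CAT is catalase, which breaks down the hydrogen peroxide that peroxisomal oxidation and other reactions release. Averaged over both positions, CAT stood at -0.22, -0.07, 0.16, -0.22 and 0.04 in lean pools 1 to 5. In fat pools 6 to 10 it stood at -0.04, -0.03, 0.30, 0.29 and -0.05. Fat pools 8 and 9 lay above the highest lean pool, and all 5 fat pools lay above the lean mean. The other fat pools lay inside the lean range. The medians of the lines, -0.07 in lean and -0.03 in fat pools, differed by only 0.04. The means were -0.06 ± 0.16 in the lean and 0.09 ± 0.19 in the fat line (SD, n = 5 each). They differed by 0.16 (standard error 0.14, 95% interval -0.14 to 0.46), or 1.11-fold (0.905 to 1.37). It did not pass (limma adjusted p = 0.703, two-sided exact permutation p = 0.198).

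CAT gave the narrowest interval of the 4 genes. Its positions were filled on 81 (block 14) and 83 (block 2) of 84 spots. The differences were 0.20 in block 14 (standard error 0.14) and 0.11 in block 2 (standard error 0.14), and neither passed over the 297 positions (limma adjusted p = 0.656 and 0.765). Both positions had the same sign in 7 of 10 pools, with a Pearson r of 0.65 over the pools and 0.29 over the 28 arrays. They lay farthest apart in lean pool 3, at -0.04 in block 14 and 0.36 in block 2. With single pools left out block 2 ran from 0.06 (pool 8) to 0.20 (pool 3). With the first array of each pool alone the CAT difference was 0.29.

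**Figure D4:**
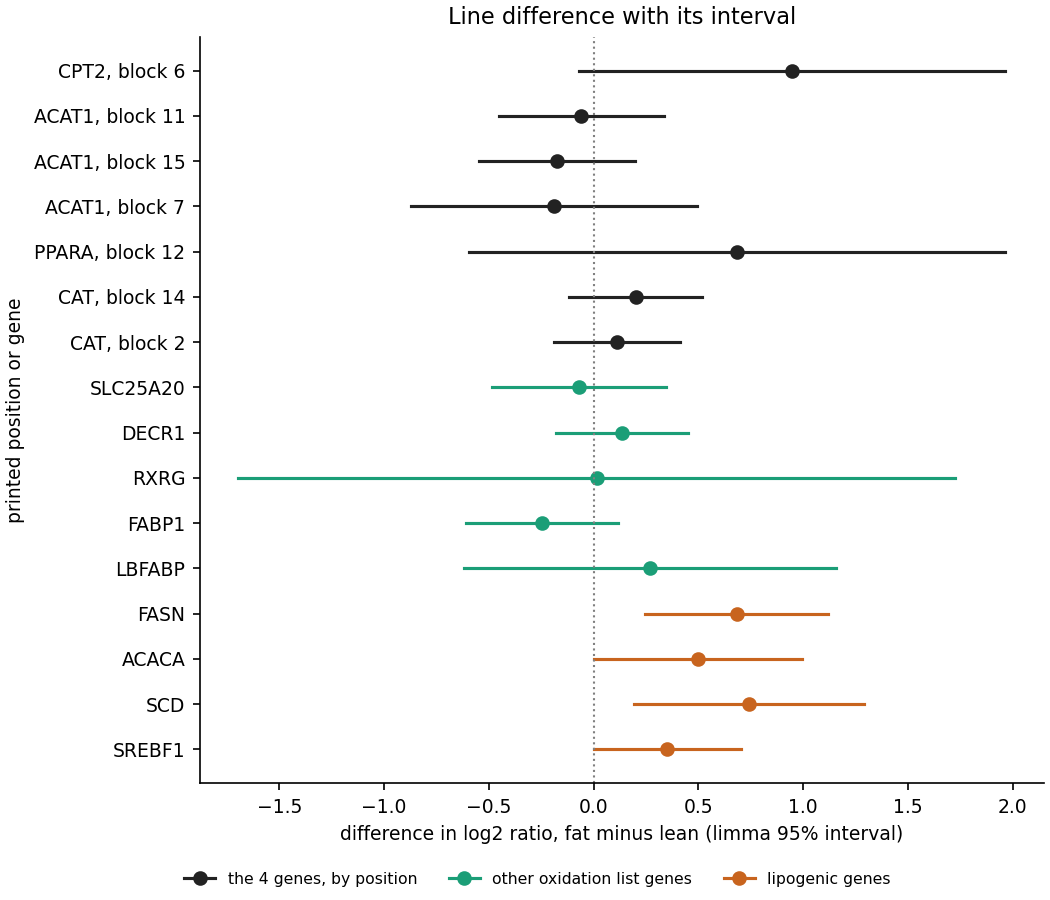
Difference in log2 ratio between the fat and the lean line (x axis, fat minus lean) with its limma 95% interval, for the 7 printed positions of the 4 genes in black, for 5 other genes of the fatty acid oxidation list in green and for 4 lipogenic genes in orange. All 7 black intervals cross 0, and those of CPT2 and PPARA are the widest of the 7.

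A list of 70 genes of fatty acid oxidation, ketone bodies and the PPARA system had 9 members on the array, the 4 above and 5 more, and all 9 could be tested. Of the 5 others, 3 had a positive and 2 a negative difference, 0 passed (0% of the 110 genes), and their median was 0.02. SLC25A20, the carrier that brings acylcarnitine into the matrix just before CPT2 acts, differed by -0.07 (standard error 0.19), and by 0.021 without pool 4. Its fat pools lay between -0.32 and -0.06 and its lean pools between -0.83 and 0.20. DECR1, the mitochondrial reductase needed for fatty acids with double bonds, differed by 0.13 (standard error 0.14), and by 0.02 without pool 1. RXRG, a retinoid X receptor and thus a partner of PPARA, was measured in 5 lean and 3 fat pools and differed by 0.02 (standard error 0.75), and by -0.52 without pool 3, where it stood at -2.57. FABP1 and LBFABP, both liver fatty acid binding proteins, differed by -0.25 (standard error 0.16) and 0.27 (standard error 0.39, 5 lean and 3 fat pools). LBFABP was at 0.09 without pool 4 and 0.42 without pool 1.

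Of the genes of the opposing pathway, FASN differed by 0.68 (standard error 0.20) and SCD by 0.74 (standard error 0.25). ACACA differed by 0.50 (standard error 0.22) and SREBF1 by 0.35 (standard error 0.16). None passed (limma adjusted p from 0.252 to 0.549). Their unadjusted limma p was 0.0057 (FASN), 0.013 (SCD), 0.0494 (ACACA) and 0.0499 (SREBF1), against 0.065 for CPT2. All 4 were thus among the 10 of 110 genes under 0.05, but they were picked with earlier results of these data known. With arrays fitted in place of pools, with their estimated correlation within a pool, 1 position of FASN (limma adjusted p = 0.0354) and 1 of SCD (0.0416) passed. No position of the 4 oxidation genes did. No alternative called more than 6 positions, where the main fit tested 297. That share is so low that 0 of the 7 oxidation positions sets no contrast between the pathways. The CPT2 difference of 0.95 was larger than that of each lipogenic gene over all pools. Against those same lipogenic values, CPT2 lay below FASN and SCD without pool 3 (0.59) or pool 10 (0.62). It lay below all 4 with pool values from at least 2 spots (0.26). The lipogenic differences under these settings are not given, so the comparison is not on the same pools.

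Pools of a line were next compared with the error between their arrays, for positions filled on 2 or more arrays of all 5 pools of that line. This could be done for the 5 positions of ACAT1 and CAT, and not for CPT2 and PPARA. Between lean pools 1 of 189 positions passed the limma F test (0.529%), and between fat pools 0 of 202 (0%). An unadjusted p under 0.05 was found at 30 of the 189 lean and 46 of the 202 fat positions. None of the 5 positions passed in either line. In the fat line the smallest was ACAT1 in block 15 (limma adjusted p = 0.183), with pool 7 at -0.57 and pool 9 at 0.11. In the lean line it was CAT in block 14 (limma adjusted p = 0.444). For ACAT1 in block 7 the lean F was 0.70, and 3.72 without the first array of pool 2 (limma adjusted p = 0.239). The arrays of that pool at this position had an SD of 2.86.

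Pool values of the 4 genes were compared in 6 pairs, and no correlation passed after adjustment over the pairs. CPT2 with ACAT1 had a Pearson r of 0.48 over 10 pools (permutation p = 0.168, adjusted 0.503) and a Spearman rho of 0.16 (permutation p = 0.653, adjusted 0.744). Without pools 3 and 10, the 2 farthest from the CPT2 median, r was -0.42, so the relation rests on those pools, which are also the pools with 1 CPT2 spot. Over all 10 pools, taken as deviations from the line means, r was 0.75 (permutation p = 0.0111, adjusted 0.0665). That permutation shuffled the deviations over all pools and not within lines. Its p takes no account of the removed line means, so this r is a description only. Dropping pools singly was done for the r of 0.48 only, which fell to 0.13 (pool 3 dropped) at the lowest. Its highest value was 0.57 (pool 4 dropped). The 0.75 was not checked in this way, nor without pools 3 and 10, so it includes both pools with 1 CPT2 spot. ACAT1 with CAT had an r of -0.54 (permutation p = 0.112, adjusted 0.503) and a rho of -0.68 (permutation p = 0.0354, adjusted 0.213). Without pools 1 and 3 r was -0.34, and taken as deviations from the line means it was -0.50. CPT2 with PPARA, the receptor and a gene of the pathway it controls in mammals, had an r of 0.20 and a rho of -0.18 over 9 pools (exact permutation p = 0.627 and 0.644, adjusted 0.848 and 0.744), and r was -0.25 without pools 3 and 10. The other 3 pairs had r of -0.07 (CPT2 with CAT, 10 pools), 0.27 (ACAT1 with PPARA, 9 pools) and -0.12 (PPARA with CAT, 9 pools), with adjusted permutation p of 0.848 for each. Their rho was 0.26, 0.13 and -0.20, with an adjusted permutation p of 0.744 for each. Without the 2 farthest pools r was 0.62, -0.11 and 0.25, so each of the 3 changed sign.

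The genes whose pool values were most like those of the members were ranked by Pearson r over at least 8 shared pools. This is a description with no test, since the values of a pool come from the same set of arrays. Where spots are missing, values of different genes can still rest on different arrays of a pool. CAT was most like LCAT (0.88), ACACA (0.87) and GLRX3 (0.82, 8 pools), among 102 genes. With line means removed these were 0.86, 0.84 and 0.86. ACAT1 was most like PNPLA3 (0.74), IDH2 (0.71) and EEF1B2 (0.70), each over 10 pools, or 0.77, 0.84 and 0.71 with line means removed. CPT2 was most like RXRG (0.75 over 8 pools), BRAT1 (0.75) and RHOA (0.73), or 0.95, 0.69 and 0.63 with line means removed. RXRG shares with CPT2 a very low value in pool 3. For CPT2 that value is 1 spot on array 1, and its highest value, in pool 10, is also 1 spot. The RXRG line difference was -0.52 without pool 3, without array 2 of that pool, or without pool values from 1 spot. The r of CPT2 with RXRG was not computed without pools 3 and 10. PPARA was most like LPIN2 (0.72 over 8 pools), IDH1 (0.72 over 9 pools) and LOC423629 (0.70 over 9 pools), among 93 genes. With line means removed these were 0.73, 0.77 and 0.78. Each r here was picked as one of the highest of its ranking, so part of its size comes from that choice.

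**Figure D5:**
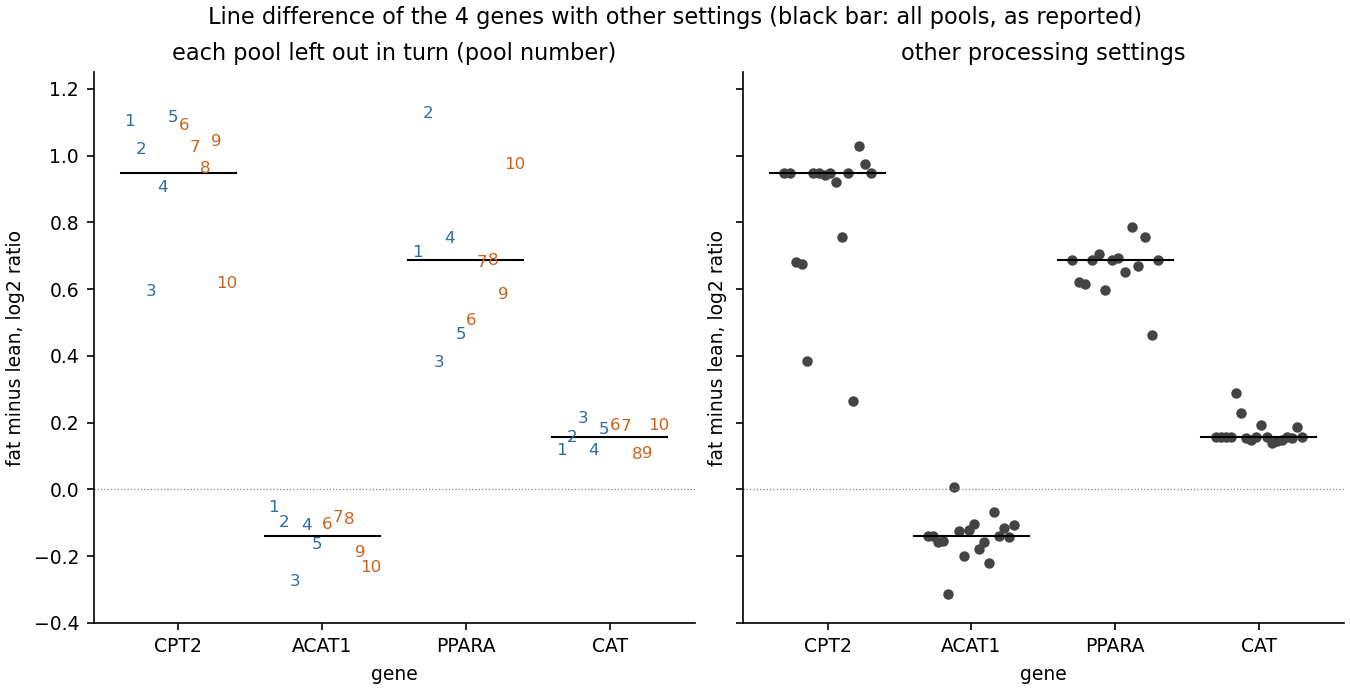
Difference in log2 ratio between the lines (y axis, fat minus lean) for the 4 genes (x axis), with each pool left out in turn on the left, where the printed number is that pool, and under the other processing settings on the right. Black bars give the reported values of 0.95, -0.14, 0.69 and 0.16. The CPT2 values fall to 0.59 and 0.62 without pools 3 and 10 and to 0.26 at the lowest on the right.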

How the data were processed

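Values are the authors' deposited log2 ratios, with 1 value for each filled spot of an array. That the base is 2 was inferred from their range (largest value 14.01). How spots were scanned, corrected, filtered and normalized is not given in the sources used here. Array medians lay between -0.06 and 0.07. Spots 3 rows apart shared their annotation at 206 of 206 annotated positions. Values were averaged over the 3 spots of a position, then over the arrays of a pool, and positions of a gene were averaged per pool. Missing values stayed missing. Of the 4 symbols, 4 matched a current chicken gene entry by gene ID. Coordinates and sequences are not used here, since no build is named in the files.

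limma 3.58.1 (R 4.3.3) was fitted with lmFit and eBayes wherever both lines had 3 or more pools with a value. Its p-values for the line difference are two-sided and were adjusted by Benjamini-Hochberg over all 110 genes or 297 positions. The scripts were first tested on simulated data. P-values of line tests on pool values measure the spread between values of pools of 4 chickens. That spread also holds the error of the arrays and spots behind each value, which is large for the sparsely filled CPT2 and PPARA. Those of the F tests between pools of a line measure the spread between arrays of a pool. They were adjusted over 189 (lean) or 202 (fat) positions. Fits with arrays as observations also use the spread between arrays. Exact permutation tests used all assignments of the line labels to the pools with a value, with a smallest p of 0.00794. Correlation tests used scipy 1.17.1, with 100000 permutations for 10 pools and every permutation below 10.

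The members, lists, tests and alternatives were chosen with earlier results of these data known. Named in the text are the 4 genes, every measured gene of the oxidation list, 4 lipogenic genes and, for each member, the 3 genes with the highest Pearson r over at least 8 pools. Alternatives changed the filter on pools, the unit of observation, the arrays, spots and pools used and the scaling of arrays.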

Additional observations from a re-analysis of the deposited data

Results flagged for a closer look

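Pool values of each line were checked for a sample far from the others with Dixon's test, in 18 groups of 4 or 5 pools (the 7 positions and the gene means of ACAT1 and CAT, in each line). Chance flags about 1 in 20 groups, and 2 of the 18 were found. CPT2 in fat pool 10 stood at 1.77, with the next fat pool at 0.40, and this pool value is 1 spot. CAT in block 2 in lean pool 3 stood at 0.36, with the next lean pool at -0.02. That pool's value in block 14, the same cDNA, was -0.04. Pool 3 had 2 arrays, and its 6 CAT spots in block 2 ran from -0.26 to 1.17.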

How the results depend on the processing

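Over 106 values of the 4 gene differences under the alternatives, 105 kept their sign and 0 passed (lowest limma adjusted p 0.423). ACAT1 turned with second arrays only (0.0073). With each pool left out the differences ran from 0.59 to 1.11 (CPT2), -0.28 to -0.05 (ACAT1), 0.38 to 1.13 (PPARA) and 0.10 to 0.21 (CAT). With second arrays only ACAT1 was at 0.25 in block 11 and 0.068 in block 7, which was at 0.13 without the first array of pool 2, and block 11 ran from -0.18 to 0.031 with pools left out. SLC25A20 turned with first arrays only (0.38) and without the second array of pool 3 (0.019), and ran from -0.24 to 0.021 with pools left out. RXRG was at -0.52 without that array or without pool values from 1 spot, at -0.043 with arrays as observations, -0.024 with quantile normalization and -0.026 with equal spot weights, and ran from -0.52 to 0.26 with pools left out. With pools left out, r ran from -0.39 to 0.50 for CPT2 with PPARA, -0.21 to 0.19 for CPT2 with CAT, -0.15 to 0.42 for ACAT1 with PPARA and -0.45 to 0.15 for PPARA with CAT. The causes were not tested.

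Fitting arrays instead of pools, with their estimated within-pool correlation, called 5 of 297 positions and 4 of 110 genes. Adding a replicate block for the array number called 6 positions and 3 genes, with 0 positions of the 4 genes among them. Both fits called 1 position each of FASN (limma adjusted p = 0.0354, and 0.0078 with the block) and SCD (0.0416 and 0.0234). In the block fit CPT2 was at 0.68 and LBFABP at -0.0023. The array number pairs no samples by the labels. In deviations of position values from the line means, same-numbered arrays of different lines had a median r of -0.02 (66 pairs). Arrays of different lines with other numbers had a median r of -0.0046 (130 pairs). Between lean pools 0 positions passed with values on all 14 arrays, 5 without the second array of pool 3 and 2 without the first array of pool 2, and between fat pools 2 passed with all 14 arrays and 1 with centred arrays. CPT2 and PPARA had no fitted difference with first arrays only or with at least 2 spots per array, and PPARA none with second arrays only. Some pools had values there, but fewer than the 3 pools required in a line. PPARA also had no fitted difference with all 10 pools required, since pool 8 had no value.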
